A study of Homo sapiens and Mus musculus with 21 samples.

Results

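The genes described here are the zinc finger genes of human chromosome 19, taken as the protein-coding genes of the RefSeq gene table (GRCh38.p14) on that chromosome whose symbol starts with ZNF. There were 250 of them among 1451 protein-coding genes of chromosome 19 (17.2%), and they were set against the other 1201 and, where useful, against 268 ZNF genes on other chromosomes. The symbols include 4 hyphenated entries, which name readthrough or divergent transcripts.

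Most ZNF proteins of chromosome 19 carry an array of Cys2-His2 zinc fingers, each a short repeat that reads a few bases of DNA, and many also carry a KRAB domain. The KRAB domain recruits TRIM28 and the histone methyltransferase SETDB1, which silence chromatin, above all at transposable elements. The genes arose by tandem duplication and lie in large clusters, with the finger array of a gene mostly in a single last coding exon. N6-methyladenosine (m6A) is an internal mark of mRNA laid down at DRACH sequences (D is A, G or T; R is A or G; H is A, C or T), whereas m6Am sits on the first transcribed base when that base is A and is laid down by PCIF1.

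The study measured PCIF1 knockout (KO) and unmodified (WT) cells of the HEK293T line, which derives from transformed human embryonic kidney. For m6A, miCLIP was used, in which an antibody is crosslinked to RNA and leaves substitutions in the reads, with 2 KO libraries and 1 WT library of polyadenylated RNA. Ribosome-protected fragments and their input, labelled as cytoplasmic RNA, were sequenced in 3 KO and 2 WT libraries each, and loss of 4-thiouridine label (SLAM-seq) was followed in KO and WT cells at 0, 6 and 12 h of chase with 1 library each. The labels do not say whether the KO cells were 1 clone or whether replicates were separate cultures, so a p-value here reflects the scatter among the libraries at hand, possibly of technical origin. With 1 WT library, m6A could not be tested between KO and WT, and the sites of a gene are not replicates.

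The KO m6A lists held 40768 and 47644 sites and the WT list 43663, each with at least 2 substituted and 4 covering reads. Of the HEK293T markers fixed for this work, 4 and 6 of 9 had a site in the KO lists and 6 in WT, with IRS4, an insulin receptor substrate typical of the line, at 58 and 60 sites in KO and 69 in WT. KRT8 and KRT18, the keratins of simple epithelia, had none in any list. Fibroblast markers had 0 and 0 of 6 genes with a site in KO and 1 in WT, and blood and endothelial markers 0 and 1 of 6 in KO and 0 in WT. Input libraries held 4511687 to 5842630 counts in KO and 5386307 to 5960674 in WT.

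Only 5 of the 250 genes had an m6Am region of the authors' list within 50 nt of their RefSeq start on the same strand: ZNF784, ZNF121, ZNF787, ZNF71 and ZNF180. Their start windows are shown because the first transcribed base is the one that m6Am modifies. Each holds 20 bases before the RefSeq start and 10 from it, 5′ to 3′ on the gene's strand, with the start base in capitals. ZNF784 lies at chr19:55624557-55624586 (minus strand), ZNF121 at chr19:9584495-9584524 (minus), ZNF787 at chr19:56121286-56121315 (minus), ZNF71 at chr19:56595282-56595311 (plus) and ZNF180 at chr19:44500513-44500542 (minus). The last line is another RefSeq start of ZNF146 at chr19:36215086-36215115 (plus), described below.
ZNF784: cttgggggcggggcttgggcAcaagatggc
ZNF121: ggcgctggctccgcatggtcAgtgccattt
ZNF787: cggaagcggccgggaaggtcActtccggcc
ZNF71: cgggcctagcgggcgcggtcAttgtcctgg
ZNF180: gtgcacttccgggttcggccAcaagagcag
ZNF146: ggagtgcttcctcgctctccGagtgcgcaa

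All 5 windows have A at the start and C directly before it. Among the 182 zinc finger genes with a start sequence in the promoter table, the start base was A in 84 (46.2%, exact 95% interval 38.8 to 53.7%), against 436 of 865 other chromosome 19 genes (50.4%, 47.0 to 53.8%). The letters CA, searched on the gene's strand with A as the start base, occurred in 67 of these zinc finger genes (36.8%) and in 331 of the other genes (38.3%). Among the other chromosome 19 genes with a region, the start base was A in 58 of 95 (61.1%) and CA was present in 43 (45.3%). Whether a start A was required for the authors' list is not stated.

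The 5 genes are 2% of the zinc finger genes (exact interval 0.653 to 4.61%), whereas 119 of the 1201 other chromosome 19 genes had a region (9.91%, 8.28 to 11.7%). The intervals do not overlap, and they cover counting error only. Restricted to genes with an m6A site in every HEK293T list, the shares were 5 of 98 zinc finger genes (5.10%, 1.68 to 11.5%) and 76 of 363 other genes (20.9%, 16.9 to 25.5%). Coverage at the gene starts was not matched between the sets, and the part of RNA level or read depth in this difference was not tested. The regions' scores, which are the authors' own and whose scale is not stated, were 2.77 at ZNF784, 2.72 at ZNF121, 2.68 at ZNF787, 2.43 at ZNF71 and 2.17 at ZNF180, all below the median of 2.90 over all 2360 regions. The first 4 regions cover the RefSeq start, and that of ZNF180 ends 22 nt from it. The nearest genes outside the limit were ZNF428, with a region 172 nt from its start and a score of 2.95, and ZNF146, at 378 nt with a score of 3.43. The region of ZNF146 covers the other RefSeq start printed above, whose base is G, while the authors' deposited table classes the gene as m6Am. None of the 5 regions contained a listed m6A site in any of the 3 lists.

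m6A sites were common in the zinc finger genes. In KO replicates 1 and 2, 134 (53.6%, 47.2 to 59.9%) and 131 (52.4%, 46.0 to 58.7%) of the 250 genes had at least 1 site, and in WT 123 (49.2%, 42.8 to 55.6%). Of the other chromosome 19 genes, 449 (37.4%, 34.6 to 40.2%) and 477 (39.7%, 36.9 to 42.5%) had a site in KO and 473 (39.4%, 36.6 to 42.2%) in WT. The zinc finger share was higher in every list, and the KO and WT intervals of the zinc finger genes overlap. The ZNF genes of other chromosomes had higher shares still, 72.0% and 71.6% in KO and 70.9% in WT, against 42.3% and 44.2% in KO and 43.5% in WT over all 20052 coding genes.

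At least 1 site in each of the 3 lists, not necessarily at the same position, was found in 98 zinc finger genes (39.2%). The same held for 363 other chromosome 19 genes (30.2%). No site in any list was assigned to 92 zinc finger genes (36.8%) and 632 other genes (52.6%). All these counts of genes with or without a site take only positions inside the span of a single coding gene. The 92 thus include ZNF146, whose span overlaps that of ZNF565 and which had 19 and 22 sites on its strand in KO and 19 in WT. The higher share of zinc finger genes with a site in every list depended on the shallow sites. With sites of at least 5 substituted reads, 6.4% of the zinc finger genes and 15.4% of the other genes had a site in every list, and with at least 20 covering reads the shares were 16.8% and 23.2%. The zinc finger genes were also longer, with a median span of 23254.5 nt against 12694 nt, and the part of length in the count was not tested.

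The sites of the zinc finger genes numbered 459 and 470 in KO and 431 in WT, counting only positions inside the span of a single coding gene. A further 32 and 45 sites in KO and 34 in WT lay where spans overlap. Of those in single spans, 418 and 419 in KO and 385 in WT were on the strand of the gene, 7 and 11 in KO and 12 in WT on the opposite strand, and the strand of the gene was not given for the rest. The sites were covered by few reads: the median was 17 reads in each of the 3 lists, against 44 and 55.5 reads in KO and 43 in WT at sites of the other chromosome 19 genes. Sites with 100 or more reads made up 2.18% and 3.83% of the zinc finger sites in KO and 2.32% in WT, against 23.9% and 29.3% in KO and 23.7% in WT for the other genes.

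The substituted share of reads looked higher in the zinc finger genes when all sites were pooled, but not at matched coverage. Pooled, 12.2% and 11.3% of reads were substituted in KO and 12.3% in WT, against 6.60% and 6.41% in KO and 6.88% in WT at sites of the other genes. At sites with 20 to 49 reads, the zinc finger genes had 12.2% and 12.2% in KO and 11.3% in WT, and the other genes 12.2% and 11.5% in KO and 11.3% in WT. At 4 to 9 reads the zinc finger genes had 32.7% and 31.9% in KO and 32.5% in WT, and the other genes 32.0% and 33.1% in KO and 33.1% in WT. In each coverage class of the plot of substituted reads the exact intervals of the zinc finger genes and the other genes overlapped. A site needs at least 2 substituted reads to be listed, so shallow sites can only be listed with a high share.

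**Figure D1:**
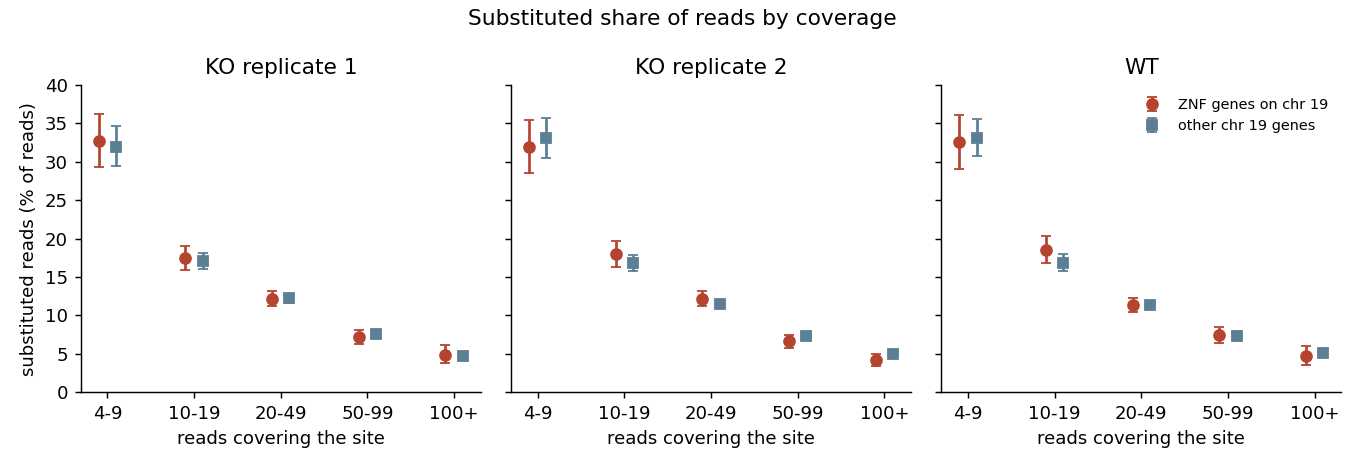
Substituted reads as a percentage of the reads at listed m6A sites (y axis), by the number of reads covering the site (x axis), in the 2 KO lists and the WT list. Points are pooled over sites of the zinc finger genes and of the other chromosome 19 genes, and bars are exact 95% intervals for counting error; at 20 to 49 reads in WT both sets stand at 11.3%.

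The sequences under the sites differed. Sites with the core GGAC, the most common m6A sequence over all genes, made up 25.3% and 23.6% of zinc finger sites in KO and 23.9% in WT (19.9 to 28.2%), against 45.5% and 44.7% in KO and 45.7% in WT (43.5 to 47.8%) of sites in the other genes. AAAC made up 15.9% and 14.3% in KO and 17.9% in WT in the zinc finger genes, and 6.4% and 7.5% in KO and 7.8% in WT in the other genes. Thus, over sites of all coverages, GGAC was less frequent and AAAC more frequent in the zinc finger genes in each of the 3 lists. For GGAC, the ZNF genes of other chromosomes lay between, at 31.0% and 31.2% in KO and 31.0% in WT. Over all coding genes it was 34.1% in WT. AAAC in the ZNF genes of other chromosomes was near the chromosome 19 ZNF values, at 13.8% and 14.7% in KO and 15.7% in WT.

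The GGAC share stayed lower within classes of coverage. In WT it was 24.4% of zinc finger sites with 4 to 19 reads, 21.8% with 20 to 49 and 28.3% with 50 or more, against 42.3%, 49.6% and 45.2% in the other genes. The narrowest gap was in KO replicate 1 at 50 or more reads, with 35.9% (24.3 to 48.9%) against 47.8% (44.4 to 51.2%). The intervals overlap there, at 20 to 49 reads in the same list and at 50 or more reads in WT. At 4 to 19 reads the ZNF genes of other chromosomes were close to those of chromosome 19. Their GGAC shares were 21.4% and 25.3% in KO and 22.7% in WT, against 20.4% and 24.3% in KO and 24.4% in WT. In the higher WT classes the ZNF genes of other chromosomes had more GGAC, 33.7% and 39.4%. The AAAC excess did not hold in every class. At 50 or more reads AAAC made up 6.25% and 14.1% of zinc finger sites in KO and 6.52% in WT. The other genes had 6.57% and 7.29% in KO and 7.28% in WT there, so only KO replicate 2 showed an excess. In the classes with fewer reads AAAC was more frequent in the zinc finger genes in each list. The linker between fingers reads TGEKPY in most such proteins, and its codons can hold the pentamer AAACC. That pentamer was rare, at 3.05% and 2.77% of zinc finger sites in KO and 1.62% in WT, against 0.279% and 0.850% in KO and 0.835% in WT in the other genes. The ZNF genes of other chromosomes had 1.09% and 1.57% in KO and 2.35% in WT, in WT more than those of chromosome 19. The intervals of AAACC were apart in both KO lists, with 1.68 to 5.06% and 1.48 to 4.68% in the zinc finger genes against 0.0906 to 0.650% and 0.512 to 1.32% in the other genes. In WT they overlapped, with 0.655 to 3.32% in the zinc finger genes and 0.487 to 1.33% in the other genes.

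A small share of the site pairs of zinc finger genes lay at multiples of the length of a finger, and this share was above that in the other genes. A finger and its linker span 28 residues, or 84 nt of coding sequence, a length that was set against the sites after they had been examined. Distances were taken between all pairs of sites of a gene that lay on the same strand as each other and less than 1000 nt apart. The strand of the gene was not required to match, so genes without a given strand, such as ZNF649, are included. In KO replicates 1 and 2, 29 of 579 pairs (5.01%, 3.38 to 7.11%) and 28 of 704 pairs (3.98%, 2.66 to 5.70%) were an exact multiple of 84 nt apart, and in WT 19 of 561 (3.39%, 2.05 to 5.24%). In the other chromosome 19 genes these shares were 1.13% and 1.39% in KO and 1.20% in WT, close to the 1.19% that an even spread over the 84 remainders gives. The next most frequent remainder in the zinc finger genes held 19 pairs in each KO list (3.28% and 2.70%, at 27 nt) and 18 pairs in WT (3.21%, at 28 nt), so the WT list by itself hardly set multiples of 84 nt apart. Pairs that share a site are not independent, so the intervals are too narrow.

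Over the sites of any list, 126 of 2823 pairs in zinc finger genes (4.46%) were a multiple of 84 nt apart, from 49 genes, against 125 of 10101 pairs (1.24%) in the other genes and 2.64% in the ZNF genes of other chromosomes. Exactly 84 nt separated 28 pairs, 168 nt 22 pairs and 252 nt 16 pairs. The 2 sites had the same pentamer in 40.5% of these pairs, against 9.08% of the zinc finger pairs at other distances. In the other chromosome 19 genes, pairs at multiples of 84 nt had the same pentamer in 6.4% and pairs at other distances in 11.0%. The ZNF genes of other chromosomes were close to those of chromosome 19, with 37.0% at multiples of 84 nt and 8.71% at other distances. GAACT was the pentamer of 24 of the 51 same-pentamer pairs, GAACA of 8 and AGACA of 5.

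ZNF266 gave 14 of the 126 pairs, ZNF121 gave 10, ZNF180 gave 9, ZNF649 gave 7 and ZNF320 gave 6. Without ZNF266 the share was 4.12%. In ZNF266, GAACT sites lay at 9413387, 9413723, 9413807 and 9414395 (GRCh38, chromosome 19, minus strand), and every distance between neighbours in that set is a multiple of 84 nt. In ZNF180, GAACT sites lay at 44476520, 44476856, 44477192 and 44477276 in the same manner, with AAACT sites at 44476455, 44477043 and 44477127. In ZNF121, GAACA sites lay at 9566125, 9566377 and 9566545, with an AAACA site at 9566461 between them. In these 3 genes the same pentamer thus recurred at the 84 nt period, and the share over all zinc finger genes was nearly as large without the gene that gave the most pairs. The positions of the fingers themselves were not read from a protein or genome sequence here.

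**Figure D2:**
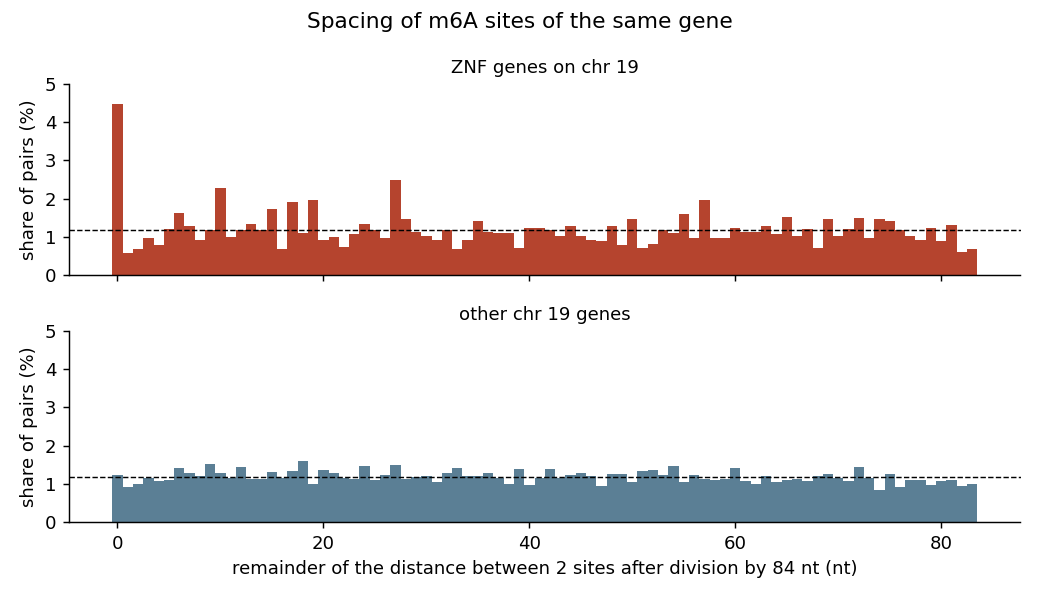
Share of pairs of m6A sites (y axis, percent) by the remainder of their distance after division by 84 nt (x axis, nt), for pairs less than 1000 nt apart in the same gene and any of the 3 HEK293T lists, in the zinc finger genes (upper panel) and the other chromosome 19 genes (lower panel). The dashed line is the even share of 1.19%; the bar at 0 reaches 4.46% in the zinc finger genes and 1.24% in the other genes.

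Within the genes, the sites lay towards the 3′ end, in both gene sets. The last 20% of the span held 59.1% and 55.2% of the zinc finger sites in KO and 62.2% in WT, and 60.0% and 61.5% in KO and 58.9% in WT of those in the other genes. The first 1 kb from the RefSeq start differed, with 0.682% and 0.452% of zinc finger sites in KO and 0% in WT, against 6.66% and 5.60% in KO and 7.20% in WT of sites in the other genes. The ZNF genes of other chromosomes had 2.25% and 2.74% of their sites in that 1 kb in KO and 2.57% in WT. Sites were assigned here by the strand of the gene, which gave 440 and 442 zinc finger sites in KO and 405 in WT. Introns are included in these spans.

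Over all sites, a smaller share was found again in another list in the zinc finger genes, but not among the weakest sites. Of all sites in KO replicate 1, 27.02% were also in KO replicate 2 and 27.2% in WT, against 51.8% and 48.2% in the other genes. For sites with at least 5 substituted reads in KO replicate 1, 60.6% (47.8 to 72.4%) were in KO replicate 2 and 57.6% (44.8 to 69.7%) in WT, against 81.4% (78.3 to 84.2%) and 75.9% (72.6 to 79.1%) in the other genes. Sites with 2 substituted reads went either way: of those in WT, 18.3% of zinc finger sites and 12.9% of sites in the other genes were in KO replicate 1, while of those in KO replicate 1, 9.41% and 15.1% were in WT. At 3 to 4 substituted reads, 35.0% of the zinc finger sites in WT and 34.8% of those in the other genes were in KO replicate 1. Every other comparison of lists at 3 to 4 reads gave a lower share in the zinc finger genes. For KO replicate 1 sites found in KO replicate 2 the shares were 28.8% (22.5 to 35.8%) and 45.9% (42.1 to 49.8%). For WT sites found in KO replicate 2 they were 33.1% (26.0 to 40.9%) and 45.3% (41.7 to 48.9%). The remaining gaps were smaller, with overlapping intervals. The second KO list held about as many of the zinc finger sites of KO replicate 1 as the WT list did. In all, 59 positions, in 31 zinc finger genes, were in all 3 lists. At these positions 8.97% and 8.45% of reads were substituted in KO and 9.64% in WT, with overlapping intervals (7.97 to 10.04% and 7.54 to 9.43% in KO, 8.56 to 10.8% in WT). At the 653 such positions of the other genes the shares were 6.42% and 6.42% in KO and 6.37% in WT, below these intervals, at a median coverage of 91 and 124 reads in KO and 101 in WT against 41 and 42 reads in KO and 30 in WT at the zinc finger positions.

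ZNF581 had the most positions shared by the 3 lists, 5, among 8 and 7 sites in KO and 8 in WT. ZNF121 shared 4 positions among 11 and 15 sites in KO and 15 in WT, and ZNF324 shared 4 among 11 and 8 in KO and 12 in WT. These 3 genes had similar site numbers in KO and WT, but they were picked for positions present in all 3 lists, which favours such similarity. ZNF865, ZNF317, ZNF101, ZNF579 and ZNF787 shared 3 positions each. The widest difference between the KO replicates in the plot of sites per gene was in ZNF317, with 7 and 15 sites in KO and 8 in WT, so the spread between KO libraries was larger than the gap to WT. ZNF714, with 9 and 6 sites in KO and 12 in WT, and ZNF507, with 11 and 13 in KO and 11 in WT, shared 2 positions each. ZNF146, an unusual family member made almost wholly of fingers, had 19 and 22 sites on its strand in KO and 19 in WT, but its span overlaps that of ZNF565, so it is not in the single-span counts.

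**Figure D3:**
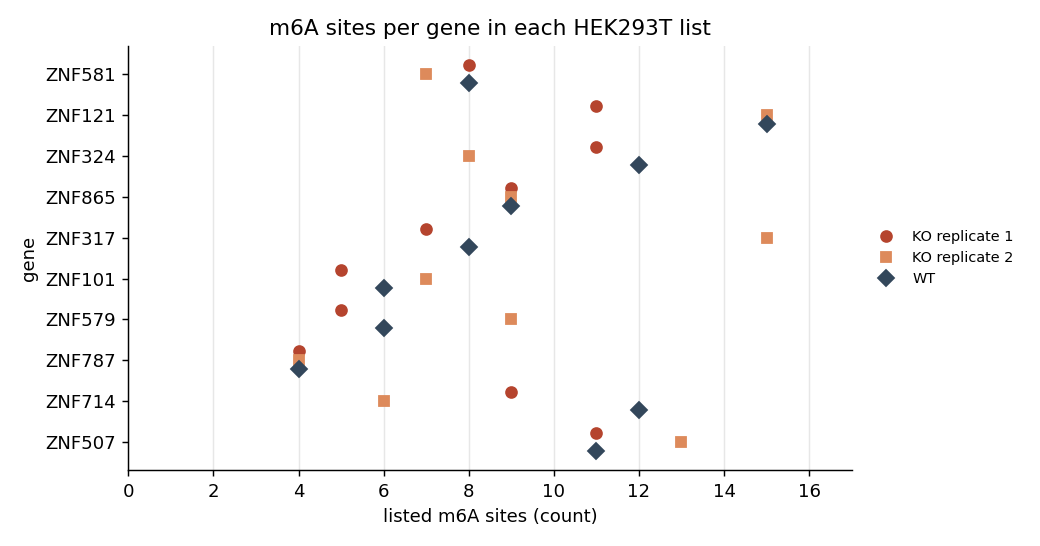
Number of listed m6A sites (x axis) in the 10 zinc finger genes with the most positions shared by the 3 HEK293T lists (y axis, most shared at the top), in KO replicate 1, KO replicate 2 and WT. ZNF121 has 11 and 15 sites in KO and 15 in WT, and ZNF317 has 7 and 15 in KO and 8 in WT.

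The site with the most substituted reads in WT was a TGACT in ZNF121 at 9566993, with 4 of 236 and 11 of 215 reads substituted in KO and 11 of 214 in WT. Next came an AGACA in ZNF787 at 56087761, with 9 of 104 and 5 of 127 reads in KO and 10 of 91 in WT. The exact intervals of KO and WT overlap at both sites (0.464 to 4.28%, 2.58 to 8.97% and 2.59 to 9.01% at ZNF121 for KO replicates 1 and 2 and WT). A GAACT in ZNF317 at 9161617 had 6 of 68 and 9 of 80 reads in KO and 9 of 62 in WT, and an AAACT in ZNF714 at 21118744 had 6 of 105 and 6 of 110 in KO and 9 of 102 in WT. In ZNF865, an AGACA at 55615124 had 6 of 56 and 6 of 44 reads in KO and 8 of 53 in WT, and a GGACT at 55616859 had 4 of 61 reads in KO replicate 1 and 8 of 79 in WT. At these 6 sites the KO and WT intervals overlapped in the lists that held them.

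The other 4 of these 10 sites were missing from at least 1 KO list, as was the GGACT in ZNF865. A GAACA in ZNF579 at 55578871 was listed in WT alone, with 9 of 26 reads substituted. An AGACT in ZNF420 at 37127805 had 3 of 20 reads in KO replicate 2 and 8 of 23 in WT. A GGACA in ZNF526 at 42226338 had 6 of 45 reads in KO replicate 2 and 8 of 39 in WT, and a GAACT in ZNF557 at 7083641 had 3 of 14 reads in KO replicate 2 and 7 of 14 in WT. The sites were ranked by their WT reads, so higher values in WT are a consequence of that choice, and a missing site has no read numbers in a list.

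The genes with m6A were unevenly spread over the clusters, taken here as runs of zinc finger genes with less than 1 Mb between starts. The run of 60 genes towards the end of the long arm, from ZNF628 at 55476617 to ZNF446 at 58489533, had sites in 70% and 65% of its genes in KO and 70% in WT. It holds ZNF784, ZNF787 and ZNF71, which have m6Am regions, and ZNF581, ZNF865, ZNF579, ZNF787 and ZNF324 of the genes named for their shared positions. The run of 37 genes from ZNF101 at 19668153 to ZNF254 at 24129968, next to the centromere, had sites in 32.4% and 29.7% in KO and 32.4% in WT. The run of 41 genes from ZNF175 at 51571283 to ZNF331 at 53580269 had 34.1% and 41.5% in KO and 34.1% in WT. The order of the first of these runs above the other 2 was the same in each list. RNA levels of most of these genes were not analysed here, so their part in the order was not tested.

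The 5 genes with an m6Am region all had m6A sites in every list, as did 76 of the 119 other chromosome 19 genes with a region. With or without a region, 39.2% of the zinc finger genes and 30.2% of the other chromosome 19 genes had a site in every list. ZNF784 had 5 and 5 sites in KO and 1 in WT, ZNF787 4 and 4 in KO and 4 in WT, and ZNF121 11 and 15 in KO and 15 in WT. ZNF71 had 3 and 3 sites in KO and 6 in WT, and ZNF180 2 and 2 in KO and 6 in WT. The numbers differed in both directions between KO and WT, and no test was possible.

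Genes of the machinery that KRAB zinc finger proteins recruit were listed for comparison. Of 12 such genes, 9 and 11 had a site in KO and 11 in WT. Over all coding genes the shares with a site were 42.3% and 44.2% in KO and 43.5% in WT. RNA level and coverage were not matched between these sets. SETDB1, the histone H3 lysine methyltransferase of the complex, had 17 and 12 sites in KO and 10 in WT, and TASOR, the scaffold of the HUSH silencing complex, 17 and 18 in KO and 15 in WT. TRIM28, which KRAB domains bind directly and which lies on chromosome 19 itself, had 3 and 9 sites in KO and 3 in WT. MPHOSPH8, the chromodomain subunit of HUSH, had 0 and 1 in KO and 0 in WT, and CBX1, a heterochromatin protein, 0 and 0 in KO and 1 in WT. The KO replicates of TRIM28 differed from each other by more than KO replicate 1 differed from WT.

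Input RNA could be named for 5 of the zinc finger genes only, since only these are paired with an Ensembl identifier in the tables used here. None of the 5 changed between KO and WT by edgeR's quasi-likelihood test with Benjamini-Hochberg adjustment over 14629 genes, where 5 genes passed (0.0342%), and none had an unadjusted p under 0.05, which 1360 genes had (9.3%). DESeq2 called 15 genes and none of the 5. In bulk RNA, fewer cells expressing a gene and less RNA per cell cannot be told apart. Levels are given in CPM, that is counts scaled to an equal library total, not scaled by length, and are compared only within a gene.

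ZNF146 had 37.1, 39.2 and 36.1 CPM in KO replicates 1 to 3, against 23.2 and 37.7 CPM in WT replicates 1 and 2. The groups overlap, as the second WT library lies inside the KO range, and the log2 fold change was 0.28 ± 0.20 (SE; edgeR adjusted p = 0.664, 3 KO and 2 WT libraries). The value depended on single WT libraries: without WT replicate 1 the log2 fold change was −0.014, and without WT replicate 2 it was 0.67 with an edgeR adjusted p of 0.0176, in a fit that called 12.4% of all genes. On the first principal component of the input, WT replicate 1 lay at 40.2, and the others at −16.3 to −9.87 in KO and −2.22 in WT replicate 2.

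ZNF536, a zinc finger repressor known from neuronal differentiation, had 24.3, 26.4 and 27.04 CPM in KO, against 33.2 and 30.6 CPM in WT. The 3 KO libraries lie below both WT libraries, with a log2 fold change of −0.33 ± 0.17 and an edgeR adjusted p of 0.560. ZNF227, with 9.24, 11.2 and 11.7 CPM in KO and 7.72 and 8.73 CPM in WT, and ZNF497, with 9.07, 10.8 and 12.4 CPM in KO and 7.55 and 8.73 CPM in WT, were above both WT libraries in each KO library. Their log2 fold changes were 0.35 ± 0.23 and 0.37 ± 0.24, with edgeR adjusted p of 0.646 and 0.638. ZNF576 had 69.5, 62.4 and 74.0 CPM in KO and 62.9 and 72.8 CPM in WT, which overlap, with a log2 fold change of −0.013 ± 0.14 and an edgeR adjusted p of 0.982. Of the ZNF497 sites in WT, 2 of 7 were on its own strand, and the strand setting of the authors' counting is not given in the sources used here, so antisense reads cannot be told apart in its counts.

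**Figure D4:**
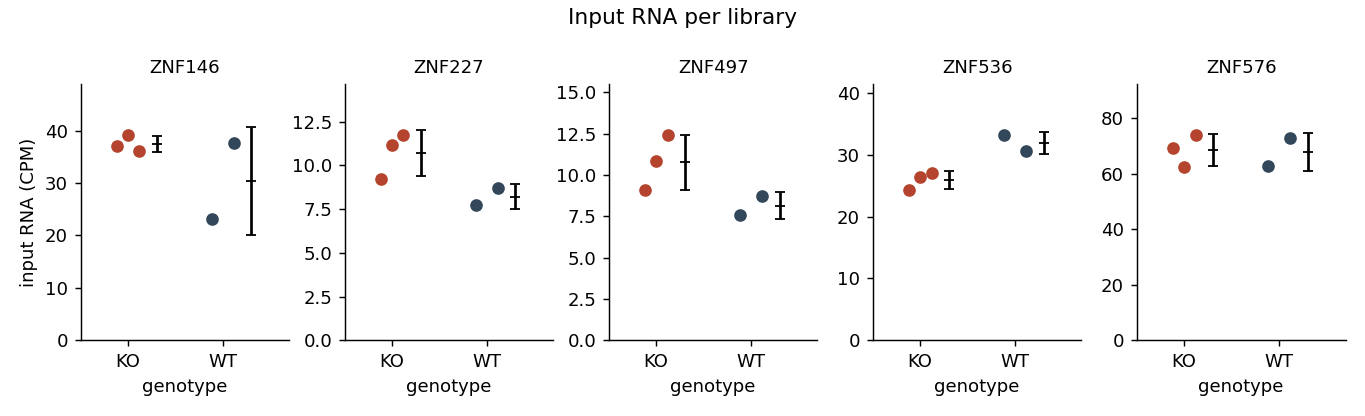
Input RNA in CPM (y axis) of the 5 named zinc finger genes in each KO and WT library (points), with the mean and SD beside them (3 KO and 2 WT libraries). KO and WT points overlap for ZNF146 and ZNF576; they are apart for ZNF227, ZNF497 and ZNF536, none of which passed the test.

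The fragment table listed 3 of the zinc finger genes among its 785 genes, and its totals, 46193 to 124580 counts in KO and 17665 and 61816 in WT, are not library depths. No gene of that table passed edgeR's adjusted threshold (0.0%), 30 had an unadjusted p under 0.05, and DESeq2 also called none, with 18 under 0.05. ZNF536 had 1081, 399 and 1051 fragment counts in KO, against 38 and 601 in WT. In fragment CPM the WT libraries differed from each other by more than the group means did, and the log2 fold change was 0.99 ± 0.89 (edgeR adjusted p = 0.936), with 0.29 without WT replicate 1, 2.54 without WT replicate 2 and 0.59 without KO replicate 3. ZNF497 had 185, 15 and 40 counts in KO, against 137 and 15 in WT, with a log2 fold change of −2.06 ± 1.64 (edgeR adjusted p = 0.932) that became 1.86 without WT replicate 1. ZNF146 had 52, 29 and 17 counts in KO, against 11 and 33 in WT, with a log2 fold change of −0.31 ± 0.42 and an edgeR adjusted p of 0.965. That value ran from −0.64 without KO replicate 2 to −0.081 without KO replicate 3, and was −0.024 with the replicate number as a block.

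For translational efficiency, the authors' deposited table gives a log2 fold change of KO over WT of −0.58 with SE 0.52 for ZNF146, in the m6Am class, and an adjusted p of 0.837. In the authors' deposited table ZNF497, classed as starting with T, has −2.56 with SE 1.60 and an adjusted p of 0.663, and ZNF536, classed as starting with G, has 1.34 with SE 0.88 and 0.690. The RefSeq start base of both ZNF497 and ZNF536 is A, so for these 2 genes, as for ZNF146 above, the RefSeq start and the authors' class differ. All 3 miss the 0.05 threshold there, which 2 of 764 genes (0.262%) passed.

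For RNA stability, the authors' deposited SLAM-seq table lists ZNF227 with a KO over WT ratio of 1.82 and ZNF576 with 0.249, both classed as starting with A. Over its 666 entries the median ratio was 0.891, with a middle range from 0.652 to 1.18 and values from 0.164 to 3.96. ZNF227 was thus at percentile 92.6 and ZNF576 at percentile 0.450 of the authors' deposited table. One gene lay above and the other below that middle range, without a value per library, so no error can be given, and which quantity was divided is not stated. The input level of ZNF576 overlapped between KO and WT, as given above, and its m6A sites numbered 2 and 5 in KO and 3 in WT.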

How the data were processed

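The deposited m6A lists give, per library, single DRACH positions with the count of substituted reads and of covering reads; per the file headers and labels nothing was normalized. The deposited input and fragment tables hold raw read counts per Ensembl gene. The authors' m6Am regions carry a score of unstated scale. The authors deposited a KO over WT ratio for SLAM-seq, and log2 fold changes with a mean signal, a test score and p-values for translational efficiency, under DESeq2's column names per the file headers. The submitters' processing notes name BWA 0.7.17, STAR, bedtools and deepTools, with GRCh38, hg38 and mm10 as builds; which tool made which file is not given in the sources used here.

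Members were found by symbol in the RefSeq table (GRCh38.p14), and sites were assigned to the 1 coding gene whose span holds them. The RefSeq table pairs no Ensembl identifiers, so members were found in the count tables through the authors' tables. Start windows are RefSeq's, from the promoter table (GRCh38.p14). Counts were tested in R 4.3.3 with edgeR 4.0.16 (TMM, filterByExpr for the input, robust quasi-likelihood F test, two-sided, threshold 0.05); DESeq2 1.42.0 was an alternative. CPM values are counts over the column total, and 3 counts correspond to 0.503 to 0.665 CPM in the input. On simulated 4-fold changes of 200 genes, edgeR recovered 92% in the input (14629 genes), with 8.458% false calls. Shares carry exact Clopper-Pearson 95% intervals, for counting error alone: reads lack molecular identifiers and may repeat a molecule. Python 3.11.15 with pandas 2.3.3, numpy 2.4.6, scipy 1.17.1 and matplotlib 3.10.9 did the rest.

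Named were the 10 members with the most positions in all 3 lists (ties by WT sites), the 10 sites with the most substituted reads in WT, every member with a region, every member with input counts or in the authors' tables, and a list of 12 KRAB cofactors. Members, lists and tests were chosen with earlier results of these data known. Alternatives were other minimums, backgrounds, distances, normalizations, a replicate block and leaving out each replicate. MEF lists were not used, and 0 columns were left over.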

Additional observations from a re-analysis of the deposited data

How the results depend on the processing

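The excess of zinc finger genes with an m6A site in every list, 8.98 percentage points over the other chromosome 19 genes, became −9.004 points with sites of at least 5 substituted reads and −6.43 points with at least 20 covering reads; zinc finger sites have fewer reads, and leaving out a KO replicate gave 7.78 to 10.96 points. The GGAC difference in WT, −21.8 points, was −7.14 points against ZNF genes on other chromosomes and −23.6 to −22.7 points under the other minimums. Of the 5 members in the input, leaving out replicates gave 0 to 1 calls, the 1 being ZNF146 without WT replicate 2. The ZNF146 input log2 fold change ran from −0.014 to 0.67 on leaving out replicates, that of ZNF576 from −0.093 to 0.098, with 0.0050 by DESeq2, and that of ZNF497 in the fragments from −3.06 to 1.86 (−1.39 with the replicate block); the cause was not tested. Calls over all genes of the input were 5, against 15 by DESeq2, 152 without the filter, and 2 to 1912 on leaving out replicates. Members with an m6Am region numbered 5 at 100 nt and on either strand, 7 at 500 nt, and 6 with any RefSeq start in the promoter table, a setting chosen after seeing the data. KO and WT share replicate numbers 1 and 2 with no stated pairing, and deviations of same-numbered libraries correlated at 0.161 and −0.00334 in the input and 0.195 and 0.209 in the fragments. With the replicate block, 0 of 5 members were called in the input (3 genes in all) and 0 of 3 in the fragments (6 genes in all). Depth is one limit of the m6A comparison, as the median zinc finger site has 17 reads; there is also only 1 WT list.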

Other observations

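Besides multiples of 84 nt, the most frequent remainder of the distance between m6A sites of a zinc finger gene was 27 nt, with 70 of 2823 pairs (2.48%). The ZNF genes of other chromosomes had the same next most frequent remainder, 27 nt, with 127 of 8700 pairs (1.46%), while in the other chromosome 19 genes it was 18 nt, with 161 of 10101 pairs (1.59%). These remainders were picked as the highest in each set after the distances had been seen, so they are a description.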
